A study of Mus musculus with 16 samples.

Results

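The mRNA of 8 transcription factors of the skeletal muscle program was followed through the differentiation of C2C12, a mouse myoblast line that fuses into multinucleated myotubes in culture. They were the basic helix-loop-helix factors Myod1, Myf5, Myog and Myf6, the MADS-box factors Mef2a, Mef2c and Mef2d, and the homeobox factor Six4. The 8 genes were picked by symbol and make up 8 of the 31053 gene rows of the table, and 7 of them were among the 10767 genes that passed a filter on low values. The samples form 4 groups of 4, namely WT myoblasts, WT myotubes, Fam134bKO myoblasts and Fam134bKO myotubes. The Fam134bKO cells carry a CRISPR-Cas9 knockout of Fam134b, which encodes a receptor for selective autophagy of the endoplasmic reticulum, and were made by lentiviral delivery of guide RNAs followed by antibiotic selection. The methods describe no isolation of single clones and no transduced control without knockout for these samples, so that effects of the knockout, of the transduction and of the selection cannot be told apart. Both genotypes were kept in the same serum-containing medium, in which myotubes form once the cells reach confluency. The labels give no day of sampling, describe the 4 samples of a group as biological replicates without saying how they were separated, and list the genotype as unknown in a further field, so the genotype was taken from the sample titles.

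MyoD and Myf5 are the determination factors that commit cells to the muscle lineage, whereas myogenin, encoded by Myog, and MRF4, encoded by Myf6, act later in differentiation. These proteins pair with E proteins and bind E-boxes in muscle genes, and MEF2 proteins bind A and T rich sites and act together with them. Six4 binds MEF3 sites, among others in the promoter of Myog, and acts with Eya cofactors.

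Myog is a well known meeting point of these 3 families, so the bases before its start site are shown first, followed by those of Mef2a and of the first annotated Mef2c start, both of which held a match to the MEF2 core. The sequences come from RefSeq on GRCm38.p6, are written 5′ to 3′ along the gene, and have in capitals each match, on either strand, to an E-box (CANNTG), to a MEF2 core (TA, then 4 letters that are each A or T, then TA) or to the MEF3 site TCAGGTT.
Myog (chr1:134289754-134290003, plus strand): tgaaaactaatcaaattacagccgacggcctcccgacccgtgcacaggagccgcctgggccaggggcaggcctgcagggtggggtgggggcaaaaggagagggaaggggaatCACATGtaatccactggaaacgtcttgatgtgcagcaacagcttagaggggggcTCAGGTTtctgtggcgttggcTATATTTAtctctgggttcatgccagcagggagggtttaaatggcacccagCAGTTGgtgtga
Mef2a (chr7:67372851-67373108, minus strand): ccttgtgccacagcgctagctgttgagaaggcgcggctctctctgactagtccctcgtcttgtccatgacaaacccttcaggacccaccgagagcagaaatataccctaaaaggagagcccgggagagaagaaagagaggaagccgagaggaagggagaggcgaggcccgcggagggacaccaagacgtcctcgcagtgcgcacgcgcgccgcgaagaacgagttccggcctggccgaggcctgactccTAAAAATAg
Mef2c (chr13:83503784-83504033, plus strand): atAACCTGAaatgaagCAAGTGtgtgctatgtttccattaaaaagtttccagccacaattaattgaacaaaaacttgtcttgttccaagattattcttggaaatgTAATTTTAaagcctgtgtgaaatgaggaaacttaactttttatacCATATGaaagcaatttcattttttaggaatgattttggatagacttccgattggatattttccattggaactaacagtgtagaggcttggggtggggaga
The Myog stretch held 2 E-boxes, starting 138 and 12 bases before the start site, the MEF3 site from base -84 and a MEF2 core from base -63. In Mef2a the capitals lie across the start site, from base -1, which is why 8 bases beyond it are shown. In Mef2c the MEF3 site lies from base -248 and reads in the reverse orientation, the E-boxes lie from bases -234 and -100, and the MEF2 core from base -145. Of the 8 factors, 6 had start-site windows in the table used, 9 windows of 300 bases in all. E-boxes occurred in 3 of the 9, MEF2 cores in 3 and the MEF3 site in 3, including a Six4 window at base -97. Among all 32851 windows of this length, 72.3% held an E-box, 9.3% a MEF2 core, whose letters are shared with TATA boxes, and 4.1% the MEF3 site. The windows of Mef2d and Myf5 held no match of these 3 kinds. A match describes letters only, and binding was not measured here.

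**Figure D1:**
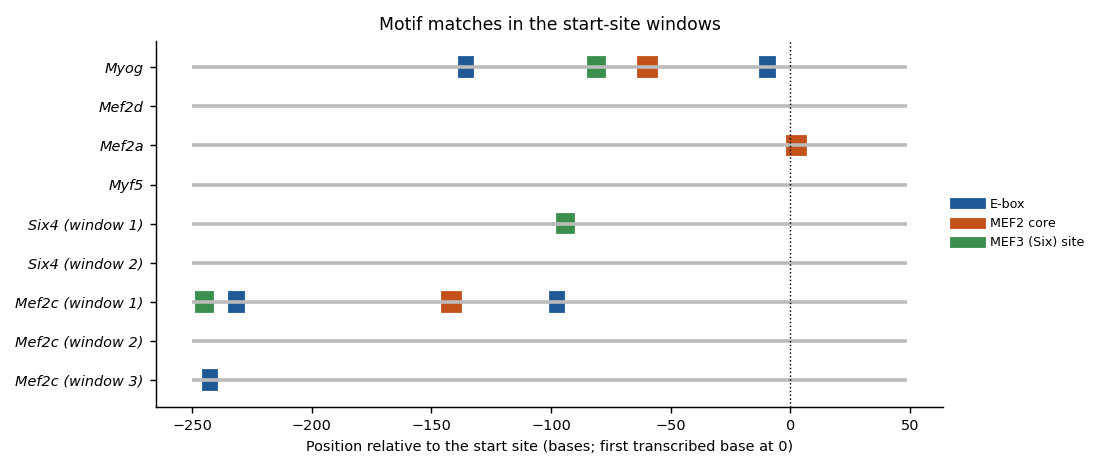
Matches to E-boxes (blue), MEF2 cores (orange) and MEF3 sites (green) in the 9 start-site windows of 6 factors, with the position in bases relative to the first transcribed base at 0 on the x axis and 1 line per window. The Myog window and the first Mef2c window hold all 3 kinds of match, and the Mef2a match lies across the start site.

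Between 1484750 and 3287461 reads were counted on genes per sample, and the values are normalized counts, that is, reads divided by a factor of the sample. The 2 shallowest samples, with 1484750 and 1790524 reads, were Fam134bKO myotubes 4 and 2. Fam134b, the targeted gene, had normalized counts of 146 to 287 in the 8 WT samples and of 23.4 to 56.9 in the 8 Fam134bKO samples, so all samples were in accord with their genotype labels. The muscle identity of the line was read from 7 marker genes, all of which had reads in each group. Their summed normalized count ran from 1302 to 2263 in the WT myoblast samples and from 4131 to 6391 in the WT myotube samples. For Fam134bKO the sums ran from 372 to 490 in myoblasts and from 1868 to 2719 in myotubes. Myod1 and Myf5 are themselves 2 of these 7 markers. The muscle intermediate filament gene Des and the myoblast cadherin gene Cdh15 were present in Fam134bKO myoblasts at 132 and 66.5, against 516 and 277 in WT myoblasts. Among the 7 markers, 5 were called lower in Fam134bKO than in WT myoblasts and none higher. Myf5 (means of 71.1 in WT and 114 in Fam134bKO myoblasts) and Sgca (10.8 and 10.6) were not called. Of the markers of other cell types, the 6 fibroblast genes summed to 2260 to 4592 in WT myoblasts and 3023 to 11550 in Fam134bKO myoblasts, the 5 immune genes to at most 24.2 in any sample and the 5 endothelial genes to less than the value of 3 reads, with Cdh5 and Tek at 0 throughout. The fibroblast sums were 10010 to 16320 in WT myotubes and 12290 to 24910 in Fam134bKO myotubes, with Tcf21 at 0 in every group. Nearly all of these sums was the collagen gene Col1a1, with means of 3078 and 7156 in WT and Fam134bKO myoblasts, whereas Thy1 and Lum had at most 3 reads in any sample. Of the fibroblast genes 3 were tested. In myoblasts 1 was called higher in Fam134bKO, Col1a1 (1.10, adjusted p = 0.0294), and none lower. In myotubes 1 was called higher, Dcn (1.57, adjusted p = 0.0265), with means of 53 in WT and 144 in Fam134bKO, and none lower. The 6 osteoblast and chondrocyte genes summed to 438 to 495 in WT and 658 to 1103 in Fam134bKO myoblasts without overlap, mostly from the cartilage factor gene Sox9 (means of 349 and 676), with Alpl at 0 in every group. In myotubes they summed to 295 to 491 in WT and 381 to 885 in Fam134bKO. Of these genes 2 were tested, and at each stage 1, Sox9, was called higher in Fam134bKO and none lower. The other, Runx2, had means of 129 and 97 in WT and Fam134bKO myoblasts and was not called. The 6 smooth muscle genes summed to 8152 to 9473 in WT and 8067 to 14260 in Fam134bKO myoblasts, where Myh11 had no read. In the myotubes they summed to 5880 to 9855 in WT and 6038 to 13420 in Fam134bKO. Between the genotypes in myoblasts 1 of them was called higher in Fam134bKO, Lmod1 (1.97, adjusted p = 5.74e-04). Also 1 was called lower, Tagln, with means of 908 in WT and 504 in Fam134bKO. The 6 adipocyte genes summed to at most 89.2 in any sample, with Adipoq and Plin1 at 0 throughout. Only Pparg of this list was called higher in Fam134bKO than in WT myoblasts, with means of 18.2 and 4.28, and none was called lower. The part of these markers in the results was not tested.

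Myod1, Myog and the 3 MEF2 genes rose with differentiation in both genotypes, and all of them were called lower in Fam134bKO than in WT myoblasts. Myog had no read in any Fam134bKO myoblast sample and reached 71.7% of the WT mean in Fam134bKO myotubes. By contrast, Myod1 reached 38.3% and Mef2c 24% of the WT mean in myotubes. Six4 stood at 45.4% of WT in myoblasts and 45.2% in myotubes and did not pass the test for differentiation in either genotype. Myf5 was the one tested factor that was not called lower in Fam134bKO cells at either stage. The abundance of mRNA in a culture does not tell fewer expressing cells from less RNA per cell, and these cannot be told apart here. Calls were made with limma at an adjusted p under 0.05 after Benjamini-Hochberg adjustment over all 10767 genes, and log2 fold changes are on the scale of log2(normalized count + 1). Comparisons that involve the same group share its samples, so their values are given side by side.

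**Figure D2:**
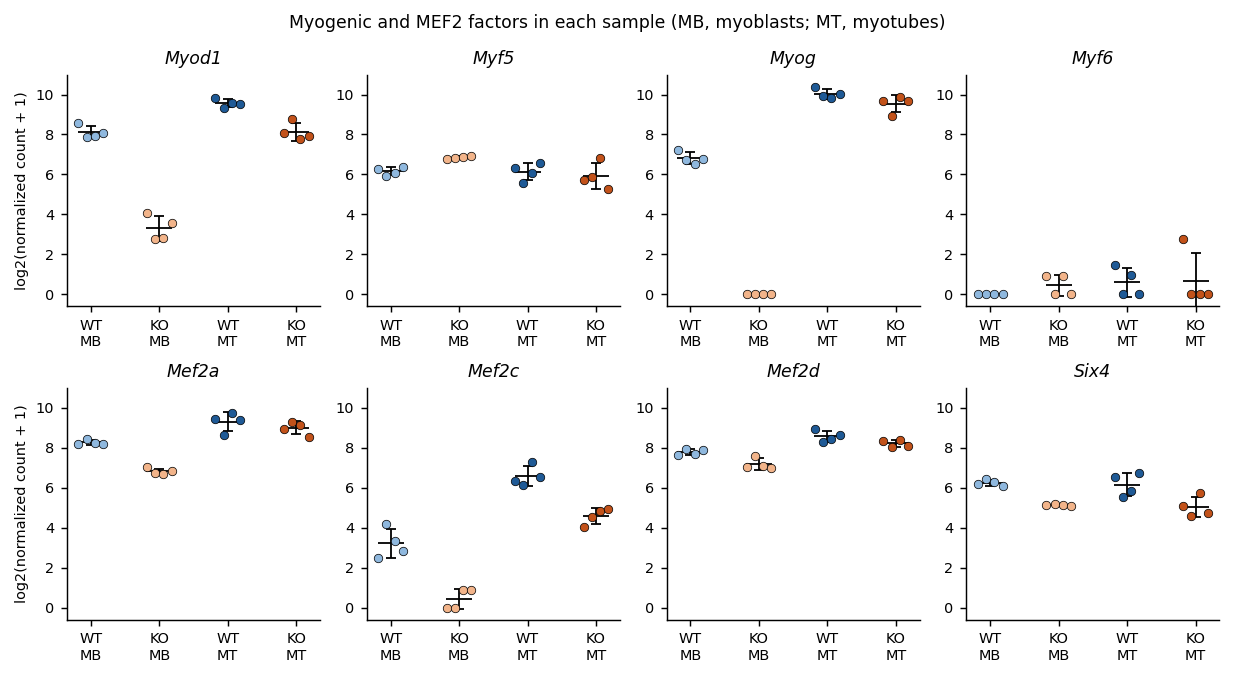
Level of each factor in each sample as log2(normalized count + 1), with WT in blue and Fam134bKO in orange, myoblasts (MB) in pale and myotubes (MT) in dark colours. Points are the 4 samples of a group, and black marks show mean and SD, so that the 4 Fam134bKO myoblast samples lie at 0 for Myog and all 4 Fam134bKO myoblast samples lie below the WT samples for Six4, while its myotube groups overlap.

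In WT cells, differentiation into myotubes was accompanied by higher levels of 5 of the 7 tested factors, and none was called lower. Of all genes tested 23% were called in this comparison, 13.8% higher and 9.16% lower. In Fam134bKO cells 6 of 7 were called between the stages, 5 higher and 1 lower, against 33.4% of all genes, 17.3% higher and 16.1% lower. Fam134bKO myoblasts had 6 of 7 factors called, all lower than in WT myoblasts, where 15.8% of all genes were called, 7.26% higher and 8.5% lower. In myotubes, 3 of 7 were called, again all lower in Fam134bKO, against 23.4% of all genes, 9.74% higher and 13.7% lower.

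Myod1 (ENSMUSG00000009471, chr7:46376474-46379099, GRCm38) encodes MyoD, which can turn other cell types into muscle. Its normalized counts were 375, 236, 245 and 270 in WT myoblasts 1 to 4 and 908, 632, 770 and 740 in WT myotubes 1 to 4. The WT groups did not overlap, and their means were 282 ± 63.7 and 763 ± 114 (SD, n = 4 each). In Fam134bKO myoblasts the values were 15.7, 5.81, 6.07 and 10.8, from 7 to 18 reads per sample, and in Fam134bKO myotubes 271, 439, 220 and 238. All Fam134bKO myoblasts lay far below all other samples, whereas the range of Fam134bKO myotubes overlapped that of WT myoblasts and stayed below that of WT myotubes. Myod1 therefore rose 2.71-fold between the means of WT myoblasts and WT myotubes (log2 fold change 1.45, SE 0.26, adjusted p = 4.66e-04) and 30.3-fold between those of Fam134bKO (4.83, SE 0.26, adjusted p = 6.31e-12). Fam134bKO myoblasts held 3.42% of the WT mean (-4.81, SE 0.26, adjusted p = 9.54e-12). The difference was smaller in myotubes (-1.43, SE 0.26, adjusted p = 4.97e-04).

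Myog (ENSMUSG00000026459, chr1:134289989-134292548) encodes myogenin, a factor that myoblasts need to form muscle fibres. The stretch shown above ends before the RefSeq start, which lies inside this GENCODE gene body, as does the E-box from base -12. WT myoblasts 1 to 4 had normalized counts of 149, 105, 92.1 and 110, and WT myotubes 1347, 969, 915 and 1043. The lowest WT myotube sample was thus far above the highest WT myoblast sample. No read was counted in any of the 4 Fam134bKO myoblast samples, where 3 reads would correspond to a normalized count of 2.49 to 2.62. Fam134bKO myotubes had 807, 487, 940 and 829, so that a gene without a read before differentiation came to overlap the WT range, with 940 in replicate 3 above 915 in WT myotube 3. The means were 114 ± 24.3, 1069 ± 193 and 766 ± 195 (SD, n = 4 each) in WT myoblasts, WT myotubes and Fam134bKO myotubes. WT cells gained 3.23 on the log2 scale (SE 0.21, adjusted p = 5.71e-10). Set against the floor of 3 reads in the Fam134bKO myoblast library where these weigh most, Myog was at least 292-fold higher in Fam134bKO myotubes than in Fam134bKO myoblasts (adjusted p = 1.35e-18) and at least 43.4-fold lower in Fam134bKO than in WT myoblasts (adjusted p = 7.62e-16). In myotubes the Fam134bKO difference was -0.51 (SE 0.21, adjusted p = 0.0892) and did not pass the test, with a two-sided exact permutation p of 0.0571.

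Myf5 (ENSMUSG00000000435, chr10:107482908-107486134) is the other determination factor, and its pattern ran apart from that of Myod1. Its normalized counts were 76.6, 59.8, 66.1 and 82.0 in WT myoblasts and 80.3, 45.9, 66.9 and 93.1 in WT myotubes. The myotube range enclosed the myoblast range, and the log2 fold change of -0.03 (SE 0.27, adjusted p = 0.96) was within the replicate spread. In Fam134bKO myoblasts it was 107, 114, 116 and 119, above all WT myoblast samples. This is the opposite order to Myod1 in the same samples, but the difference of 0.68 (SE 0.27, adjusted p = 0.0955) did not pass the limma test, while the two-sided exact permutation p was 0.0286, the smallest that 4 against 4 samples can give. When only the 8 myoblast samples were fitted, the difference was called (adjusted p = 0.00453). Fam134bKO myotubes had 51.3, 56.9, 113 and 38.0, 3 samples below and 1 within the range of Fam134bKO myoblasts. Myf5 was called lower in Fam134bKO myotubes than in Fam134bKO myoblasts (-0.92, SE 0.27, adjusted p = 0.0119), and this call was lost without myotubes 2 and 4 (-0.57, adjusted p = 0.14). It did not differ beyond the spread between Fam134bKO and WT myotubes (-0.21, SE 0.27, adjusted p = 0.615).

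Myf6 (ENSMUSG00000035923, chr10:107492853-107494737) lies next to Myf5, with 6718 bases between the 2 gene bodies, and its product MRF4 marks late differentiation and mature fibres. It was the one factor that did not pass the filter. No read was counted in WT myoblasts, and WT myotubes 1 and 3 had 2 and 1 reads and the other two none. In Fam134bKO cells, myoblasts 1 and 3 had 1 read each and myotube 1 had 6, a normalized count of 5.81, with no read in the other 3 myotube samples. Apart from that sample, all values were at or under the floor of 3 reads, so a difference between the groups was not detectable at this depth.

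Mef2a (ENSMUSG00000030557, chr7:67231163-67372858) encodes a MEF2 protein that is widely expressed. WT myoblasts had normalized counts of 289, 345, 306 and 290, and WT myotubes 686, 404, 867 and 676. Even the low myotube sample, replicate 2, was above all myoblasts. Fam134bKO myoblasts had 129, 107, 101 and 112, below every other sample, and Fam134bKO myotubes 498, 630, 568 and 374, within or just below the range of WT myotubes. Mef2a rose in WT (1.05, SE 0.20, adjusted p = 7.44e-04) and in Fam134bKO cells (2.18, SE 0.20, adjusted p = 3.79e-08). Fam134bKO myoblasts held 36.4% of the WT mean (-1.45, SE 0.20, adjusted p = 1.51e-05). In myotubes the mean was 78.6% of WT (-0.32, SE 0.20, adjusted p = 0.266), which was not called, although it was without WT myotube 2 (-0.54, adjusted p = 0.035).

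Mef2c (ENSMUSG00000005583, chr13:83504034-83667080) encodes the MEF2 protein best known from heart and skeletal muscle development. It was sparse in myoblasts, with 4.61, 17.4, 9.01 and 6.24 in WT, from 5 to 18 reads, and 0, 0, 0.867 and 0.834 in Fam134bKO, from 2 reads in all. WT myotubes had 79.4, 69.3, 156 and 92.1, and Fam134bKO myotubes 15.5, 21.9, 27.9 and 30.0. Each myotube group was above the myoblasts of its genotype, and all Fam134bKO myotubes lay below all WT myotubes, 1 of them within the range of WT myoblasts. Mef2c rose by 3.36 on the log2 scale in WT (SE 0.41, adjusted p = 4.09e-06). In Fam134bKO the ratio of the myotube to the myoblast level was 54.3, with a 95% interval of 14.5 to 457 that covers counting error only (adjusted p = 9.92e-08). The WT level in myoblasts was 21.6 times that of Fam134bKO, with an interval of 5.59 to 185 (adjusted p = 3.41e-05). In myotubes Mef2c was lower in Fam134bKO, with a log2 fold change of -1.98 (SE 0.41, adjusted p = 0.0013), and was also called without Fam134bKO myotubes 2 and 4 (-2.13, adjusted p = 0.00387).

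Mef2d (ENSMUSG00000001419, chr3:88142372-88172086), which like Mef2a is broadly expressed, gave the smallest called difference among the factors, between the genotypes in myoblasts. WT myoblasts had 196, 246, 204 and 234 and WT myotubes 486, 313, 343 and 400. Fam134bKO myoblasts had 129, 193, 136 and 128 and Fam134bKO myotubes 321, 261, 338 and 276. All myotubes of a genotype were above its myoblasts, and all Fam134bKO myoblasts below WT myoblasts, with Fam134bKO replicate 2 just under WT replicate 1. The rise was 0.79 in WT (SE 0.17, adjusted p = 0.0025) and 1.04 in Fam134bKO (SE 0.17, adjusted p = 1.05e-04). The difference between the genotypes in myoblasts was -0.60 (SE 0.17, adjusted p = 0.0219), a call that was lost in 5 of the 8 fits with 1 myoblast sample left out (WT 2 or 4, or Fam134bKO 1, 3 or 4), with adjusted p from 0.0615 to 0.0755 in those 5 and fold changes from -0.74 to -0.54 over the 8. In myotubes it was -0.35 (SE 0.17, adjusted p = 0.153).

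Mef2a has 12, Mef2c 31 and Mef2d 7 annotated transcripts, and reads were counted per gene, so that muscle-specific splice forms were not told apart from others. The strand setting of the counting is not given in the sources used here. Exons of Mef2a overlap those of Lysmd4 on the other strand, which had mean normalized counts of 14.7 to 32.6 in the 4 groups. Exons of Mef2d overlap the antisense gene 1700113A16Rik, with means of 1.66 to 9.56. The share of reads that may have passed between the genes of a pair was not tested.

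Six4 (ENSMUSG00000034460, chr12:73099609-73113456) had normalized counts of 71.0, 86.8, 77.1 and 66.8 in WT myoblasts and 92.4, 45.0, 55.8 and 106 in WT myotubes. WT myotubes were thus spread around the narrow range of WT myoblasts. Fam134bKO myoblasts had 34.1, 35.7, 33.8 and 33.4, and Fam134bKO myotubes 32.9, 23.3, 53.1 and 26.0. All Fam134bKO myoblasts lay below all WT samples, and among the myotubes Fam134bKO replicate 3 exceeded WT replicate 2. The level was tied to the genotype, at -1.11 in myoblasts (SE 0.28, adjusted p = 0.00712) and -1.11 in myotubes (SE 0.28, adjusted p = 0.00592). The myotube call was lost without Fam134bKO myotubes 2 and 4 (-0.74, adjusted p = 0.0855), and its two-sided exact permutation p was 0.0571. Differentiation changed Six4 by -0.09 in WT (SE 0.28, adjusted p = 0.855) and by -0.09 in Fam134bKO cells (SE 0.28, adjusted p = 0.832), both within the spread of replicates.

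**Figure D3:**
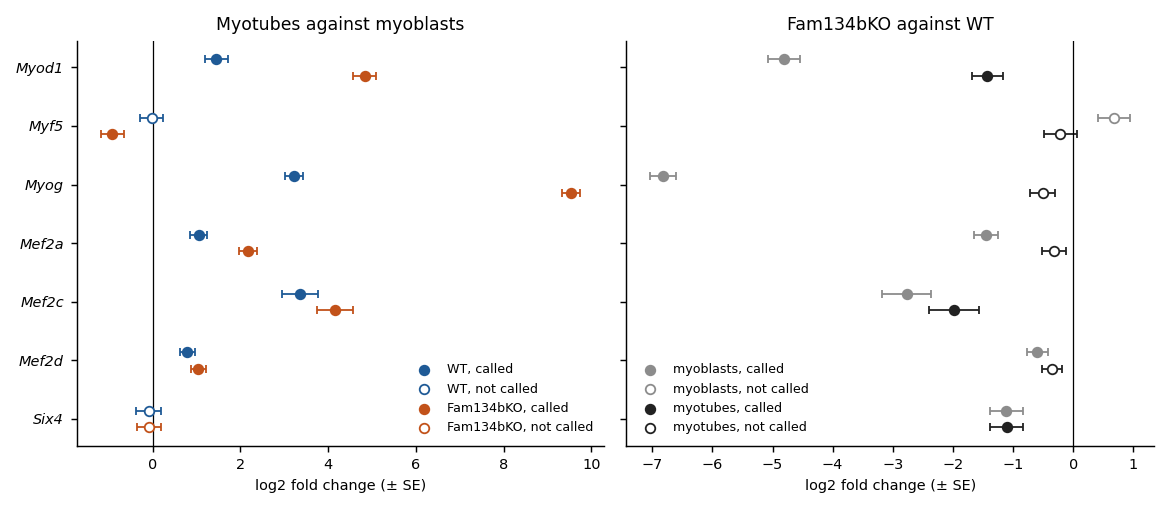
Log2 fold change of the 7 tested factors with SE on the x axis, between the stages in each genotype (left) and between the genotypes at each stage (right), with filled points for called differences. Myog and Myod1 lie farthest from 0 in the comparisons with Fam134bKO myoblasts and Mef2c in the other two, and Six4 lies at -1.11 between the genotypes at both stages. The Myog and Mef2c points that involve Fam134bKO myoblasts depend on the added count of 1.

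The interaction term, which asks whether the change with differentiation depended on the genotype, called 3 of 7 factors, against 3.45% of all genes (1.97% higher and 1.48% lower). All 3 had a larger gain on the log2 scale in Fam134bKO, from a lower level in myoblasts. Myog gained more in Fam134bKO than in WT cells (6.32, SE 0.30, adjusted p = 1.29e-11), a value that depends on the added count and was 4.05 with an added count of 5. Myod1 also gained more (3.39, SE 0.37, adjusted p = 4.94e-06), as did Mef2a (1.13, SE 0.28, adjusted p = 0.0288). In normalized counts the Fam134bKO myotube means stayed below those of WT myotubes, at 766 against 1069 for Myog, 292 against 763 for Myod1 and 517 against 658 for Mef2a. The Mef2a call was lost in 4 of 16 fits with 1 sample left out (WT myoblasts 2 or 3, or Fam134bKO myoblasts 3 or 4), with adjusted p from 0.0563 to 0.0685, and with total scaling (0.0618) or quantile normalization (0.0556). Mef2c (0.79, SE 0.58, adjusted p = 0.513), Mef2d (0.24, SE 0.25, adjusted p = 0.66), Myf5 (-0.89, SE 0.38, adjusted p = 0.222, and called at -1.20 with adjusted p = 0.0392 without Fam134bKO myotube 3) and Six4 (0.00, SE 0.39, adjusted p = 0.999) were not called. For Mef2c the direction turned to -0.49 with an added count of 5 and to -0.10 with quantile normalization.

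Ordered by group mean, Myog, Mef2a, Mef2c, Mef2d and Myod1 shared the sequence WT myotubes, Fam134bKO myotubes, WT myoblasts and Fam134bKO myoblasts. Neighbours in this order did not overlap at the last step for any of the 5 factors. At the first step WT and Fam134bKO myotubes overlapped for Myog, Mef2a and Mef2d, and at the middle step Fam134bKO myotubes and WT myoblasts overlapped for Myod1 and Mef2c. For Myf5 the order started with Fam134bKO myoblasts, and the other 3 groups overlapped. For Six4 the 2 WT groups came first, and the neighbouring WT myotubes and Fam134bKO myoblasts did not overlap. Counted over the 7 tested factors, the samples of the 2 groups did not overlap for 5 between WT myotubes and WT myoblasts (28% of all genes), 5 between the Fam134bKO stages (27.4%), 7 between the genotypes in myoblasts (26.8%) and 2 in myotubes (19.4%).

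Over all tested genes, Fam134bKO myotubes lay farther from their group mean than the samples of the other groups, with a root mean square deviation of 0.448 to 0.691 on the log2 scale against 0.26 to 0.44, and the factors did not vary together there. Replicate 2 had the highest Myod1 and Mef2a and the lowest Myog, Mef2d and Six4 of the 4. Replicate 3 had the highest Myog, Mef2d, Myf5 and Six4. Replicate 4, with the fewest reads, had the highest Mef2c, from 15 reads, and the lowest Mef2a and Myf5. WT myotube 2 was the lowest of its group for Myod1, Myf5, Mef2a, Mef2c, Mef2d and Six4.

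Over the 16 samples, which fall into the 4 groups and share their normalization, Myog and Myod1 followed each other with a Pearson correlation of log2 values of 0.956, and Myog and Mef2a with 0.955. Myf5 ran against Myod1 at -0.625, and Six4 with Myod1 at 0.494. Among the 10766 other tested genes, the closest to Myog were Tmem8c, which encodes the fusion protein myomaker, at 0.994, Socs2 at 0.991 and Spsb1 at 0.99. Baiap2l1 (0.989), the slow troponin T gene Tnnt1 (0.987) and the acetylcholine receptor subunit gene Chrnd (0.986) were closest to Myod1. Mef2a was closest to the myosin light chain gene Myl1 (0.972), Hfe2 (0.969) and the muscle creatine kinase gene Ckm (0.968), and Mef2c to the cell cycle inhibitor gene Cdkn1a (0.978) and the Z-disc genes Tcap (0.977) and Csrp3 (0.977). The genes closest to Mef2d were Ankrd10 (0.969), Apobec2 (0.958) and Inppl1 (0.951). Among those closest to Myf5 were Pdcd2 (0.901) and Kif1bp (0.893), and those closest to Six4 were Dnal1 (0.937), Col4a3bp (0.921) and Rpl22l1 (0.897). Since the group means dominate these correlations, they are a description of shared patterns over 4 groups.

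Partners of the factors were read from a list of 17 E proteins and co-activators, all tested. Between WT stages 1 was higher and 1 lower, and the median log2 fold change was 0.04 against -0.01 for all tested genes. The higher one was Rbm24, an RNA-binding protein gene of muscle (3.55, adjusted p = 4.71e-06), and the lower one the arginine methyltransferase gene Prmt5 (-0.83, adjusted p = 0.00269). In Fam134bKO cells 5 were higher and 3 lower in myotubes (median -0.06, all genes -0.02). In myoblasts 5 were lower and none higher in Fam134bKO (median -0.23, all genes -0.01), with Rbm24 from a mean of 11.8 in WT to 0 reads, at least 4.51-fold lower, and the chromatin remodelling subunit gene Smarcd3 at -0.84 (adjusted p = 0.00411). In myotubes 2 were higher and 4 lower (median -0.07, all genes -0.07), among them the E protein gene Tcf4 (0.61, adjusted p = 0.01) and Rbm24 (-2.42, adjusted p = 3.93e-04). The interaction called 2 of the 17, the E protein genes Tcf4 (1.07, adjusted p = 0.0106) and Tcf12 (0.82, adjusted p = 0.034), and not the E protein gene Tcf3. The Tcf12 call was lost with total scaling and with quantile normalization. With 1 sample left out, 1 of these interaction calls was left in 9 of the 16 fits (WT myoblasts 1, 2 or 4, WT myotubes 2 or 3, Fam134bKO myoblasts 1, 3 or 4, or Fam134bKO myotube 3), and the 8 calls between the Fam134bKO stages became 5 without Fam134bKO myoblast 1, 3 or 4 or Fam134bKO myotube 1 or 3.

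Of 17 repressors of the myogenic helix-loop-helix factors, 14 were tested. In WT 3 rose and 3 fell with differentiation (median 0.31, all genes -0.01), and in Fam134bKO 3 rose and 1 fell (median -0.05, all genes -0.02). The Notch target genes Hey1 and Heyl rose in WT by 2.16 and 1.85 on the log2 scale (adjusted p = 0.00233 and 0.00139), Heyl also rose in Fam134bKO (1.94, adjusted p = 5.23e-04), and the E-box repressor gene Twist2 fell in both genotypes (-1.28 in WT and -1.34 in Fam134bKO). Fam134bKO myoblasts had 2 higher and 2 lower (median -0.01, all genes -0.01), and Fam134bKO myotubes 1 higher and 3 lower (median -0.18, all genes -0.07). Heyl was lower in Fam134bKO by -3.87 in myoblasts and -3.78 in myotubes on the log2 scale (adjusted p = 1.32e-07 and 7.09e-07). Snai2, which encodes a zinc finger repressor, was higher at both stages (1.34 and 1.11, adjusted p = 1.00e-05 and 1.42e-04). Id2, whose product sequesters E proteins, was lower in Fam134bKO myoblasts (-1.81, adjusted p = 3.86e-04) and myotubes (-1.02, adjusted p = 0.029). Between the WT stages Id2 and Id3 fell (-1.12 and -0.91, adjusted p = 0.0183 and 0.0202), and neither was called between the Fam134bKO stages. The interaction called Hey1 alone, which rose from a mean of 16.4 to 70.1 in WT and had means of 13.6 and 9.12 in Fam134bKO (-2.98, adjusted p = 0.014).

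Among 20 regulators and partners of MEF2, 17 were tested, and 6 rose and 1 fell with differentiation in WT (median 0.42, all genes -0.01), 5 and 0 in Fam134bKO (median 0.33, all genes -0.02). Mamstr, which encodes a MEF2 co-activator, rose in WT (2.34, adjusted p = 0.00388). It was also called in Fam134bKO (adjusted p = 0.00828), where it went from no read in myoblasts to between 0 and 6 reads per myotube sample, and no fold is given at this depth. Tead4, an MCAT-binding factor gene, rose in WT (2.46, adjusted p = 5.42e-06). In Fam134bKO myoblasts 3 were higher and 2 lower (median -0.01, all genes -0.01), with Mamstr without a read, at least 2.34-fold lower than in WT. In Fam134bKO myotubes 6 were higher and 4 lower (median 0.37, all genes -0.07). Hdac7, a class IIa deacetylase gene whose product represses MEF2, was higher there (0.97, adjusted p = 2.45e-04), as was the gene of the deacetylase kinase Prkd1 (2.13, adjusted p = 0.00128). Prkd1 was also higher in Fam134bKO myoblasts (2.79, adjusted p = 7.66e-05). It had 1 to 3 reads per WT myoblast and 3 to 8 per WT myotube sample. Vgll2 (-3.44, adjusted p = 8.28e-05) and Mamstr (-3.20, adjusted p = 2.26e-04), both co-activator genes, were lower in Fam134bKO myotubes, each with at most 6 reads per sample there. The size of the differences of Prkd1, Vgll2 and Mamstr therefore depends on the added count. Tead4 was the one gene of this list called by the interaction (-1.86, adjusted p = 0.0172), where 2 were called without Fam134bKO myotube 3 or 4. The 7 calls between WT stages became 4 without WT myoblast 3 or 4 or WT myotube 1, 3 or 4, and the 5 between the genotypes in myoblasts became 3 without Fam134bKO myoblast 1.

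Of 15 genes of the homeobox and cofactor families around Six4 (the Sine oculis, Eya, Dach, Pax and Pitx genes), 8 were tested, and between the WT stages only Eya1 was called (-1.35, adjusted p = 0.0243). None was called there without WT myoblast 2 or 4 or WT myotube 1, and 2 were without WT myotube 2. Fam134bKO cells had 2 higher and 2 lower in myotubes than in myoblasts. Pitx3, a homeobox gene, was lower in Fam134bKO at both stages (adjusted p = 1.38e-05 and 8.26e-05). In myoblasts the WT level was 44.3 times that of Fam134bKO, from 3 reads over the 4 Fam134bKO samples, with a counting interval of 14.8 to 218, and in myotubes the means were 40.0 in WT and 4.09 in Fam134bKO, from 0 to 7 reads per sample. In myoblasts 2 genes of the list were lower and none was higher (median 0.06, all genes -0.01). In myotubes 3 were higher and 2 lower (median 0.39, all genes -0.07), the higher ones led by Eya1 (1.48, adjusted p = 0.014) and Six5 (1.25, adjusted p = 0.00275), and the interaction called none of the 8 in limma, with 3 at an unadjusted p under 0.05, and 1 without Fam134bKO myoblast 2 or Fam134bKO myotube 2.

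**Figure D4:**
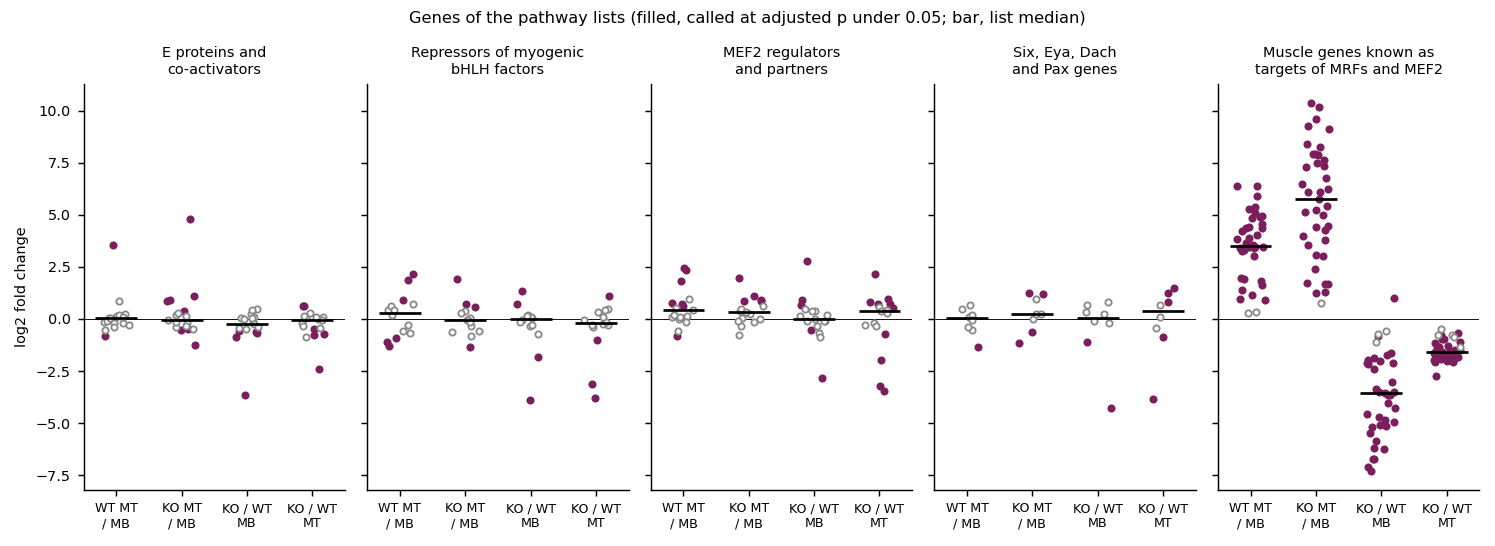
Log2 fold change of each tested gene of 5 lists on the y axis, for myotubes (MT) against myoblasts (MB) in each genotype and for Fam134bKO (KO) against WT at each stage, with filled points for called genes and bars for list medians. The muscle genes known as targets sit at a median of 3.51 in WT and 5.75 in Fam134bKO between the stages, and the other 4 lists have medians between -0.23 and 0.42.

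Muscle genes known as targets of these factors were read from a list of 40, chosen like the others with earlier results of these data known. Whether the factors caused the changes of these genes was not tested. Of the 40 genes 39 were tested. In WT 37 rose (median 3.51, all genes -0.01) and in Fam134bKO cells 38 (median 5.75, all genes -0.02), against 13.8% and 17.3% of all genes. The Fam134bKO median was the same with 4 genes without a read in Fam134bKO myoblasts set at their lower bound. The embryonic myosin heavy chain gene Myh3 and the cardiac actin gene Actc1, which is used in young skeletal muscle, had the largest fitted rise in both genotypes, with Myh3 up by 6.38 and Actc1 by 6.36 in WT (adjusted p = 1.20e-11 and 4.80e-13). In Fam134bKO myoblasts Myh3 had 3 reads in all, and the ratio of Fam134bKO myotubes to Fam134bKO myoblasts was 3185 with an interval of 1090 to 15400. Between the genotypes, 35 were lower and 1 higher in Fam134bKO myoblasts (median -3.58, all genes -0.01), where 8.5% of all genes were lower. In Fam134bKO myotubes 34 were lower and none higher (median -1.60, all genes -0.07), where 13.7% of all genes were lower. The fast myosin light chain gene Mylpf fell from 1010 ± 141 in WT to 5.51 ± 1.65 in Fam134bKO myoblasts (SD, n = 4 each), or by 7.31 on the log2 scale (adjusted p = 2.51e-16), and the fast troponin C gene Tnnc2 had 210 to 331 reads per WT and at most 2 per Fam134bKO myoblast sample (adjusted p = 1.92e-15). The one higher gene was Cox6a2, for a muscle subunit of cytochrome c oxidase (1.03, adjusted p = 0.0243). In myotubes the calcium channel gene Cacna1s (-2.75, adjusted p = 2.08e-05) and the fast troponin T gene Tnnt3 (-2.07, adjusted p = 4.45e-05) were the lowest. Actc1 (-0.46) was among the 5 not called there, as Myog was. The interaction called 24 genes with a larger gain on the log2 scale in Fam134bKO, against 1.97% of all genes. The largest fitted values were those of Mylpf (5.64) and Tmem8c (5.39), the latter resting on 2 reads over the 4 Fam134bKO myoblast samples, so that its size and this order depend on the added count. It also called 1 with a smaller gain, Cox6a2 (-2.82). Without Fam134bKO myotubes 2 and 4, 30 genes of the list were called between the genotypes in myotubes.

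Exit from the cell cycle goes with myogenic differentiation, and 12 proliferation genes were read beside the factors. In WT 9 fell and 3 were not called with differentiation (median -0.84, all genes -0.01), and in Fam134bKO all 12 fell (median -2.09, all genes -0.02). None of the 12 was called between the genotypes in myoblasts at adjusted p under 0.05 in limma (median -0.15, all genes -0.01). Among them 1 had an unadjusted p under 0.05, and 1 was called without Fam134bKO myoblast 2. In myotubes 9 were lower in Fam134bKO (median -1.16, all genes -0.07). Whether proliferation had a part in the levels of the factors was not tested. Mki67, the gene of the Ki-67 antigen, had means of 305 and 267 in WT and Fam134bKO myoblasts, and fell in Fam134bKO to 58.6 in myotubes, lower than in WT myotubes, which ranged from 159 to 255 (-1.76, adjusted p = 1.05e-05). The interaction called 5 of the 12 as falling further in Fam134bKO, with Mki67 at -1.58 (adjusted p = 0.00547) and Mcm5, for a subunit of the replicative helicase, at -1.54 (adjusted p = 0.00325). The 5 became 3 without WT myoblast 1, 2 or 3, WT myotube 4 or Fam134bKO myoblast 1, 2 or 4.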

How the data were processed

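Total RNA of C2C12 cells was sequenced single-end by a digital mRNA-seq service. According to the methods and the submitters' processing notes, the authors converted base calls with bcl2fastq, trimmed with bbduk, aligned with STAR 2.6.0a to mm10 and counted reads per gene with HTSeq. The tool used for normalization is not given in the sources used here. The deposited values are log2(normalized count + 1), as read from the values: 2 to the power of each, minus 1, came out, for 100% of the nonzero values, as a whole multiple of a step particular to the sample (tolerance 0.01 reads), which gave the reads quoted. The design had assumed a linear scale, so no further log step was taken. Genes that reached a normalized count of 10 in 4 or more samples were compared with limma 3.58.1 (R 4.3.3; lmFit, contrasts.fit, eBayes with trend) in 1 model with 4 group means, and tested on simulated data beforehand. Exact permutation tests were two-sided over 70 splits. The p-values measure the spread between these samples only, and count-based floors (3 reads) and intervals cover counting error only. Gene positions are from GENCODE M21 and windows from RefSeq, both on GRCm38. The factors and lists were chosen with earlier results of these data known. Genes named are the 8 factors, Fam134b, for each list and comparison up to 2 called genes with the largest positive and up to 2 with the largest negative change (some are summarised in counts), and the 3 genes closest to each factor. A few others (Des, Cdh15, other single markers of cell types, Id3 and the overlapping genes) were chosen after their values were seen. Some genes that this rule names are not reported here. Alternatives were added counts of 0.5 and 5, no filter or a minimum of 50, total scaling, quantile normalization, a replicate block, only the 8 samples compared, sample weights, an adjusted p under 0.01, each sample left out, and, chosen after seeing the data, Fam134bKO myotubes 2 and 4 left out together. Same-numbered samples of different groups deviated together with a mean correlation of 0.033 (-0.0108 for different numbers), so the numbers were not taken to pair samples.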

Additional observations from a re-analysis of the deposited data

Results flagged for a closer look

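The change of 3 factors with differentiation differed between the genotypes by the interaction term of limma. The change in Fam134bKO minus the change in WT was 6.32 for Myog, 3.39 for Myod1 and 1.13 for Mef2a on the log2 scale, with all 4 myotube samples above all 4 myoblast samples in each genotype for each of the 3. In 2 cases 1 sample lay far from the other 3 of its group, with a gap over the range above Dixon's 95% critical value. Myf6 had a normalized count of 5.81 in Fam134bKO myotube 1 and no read in the other 3, where any read in 1 sample alone would have been flagged. Mef2d had 193 in Fam134bKO myoblast 2 against 128 to 136 in the other 3. Chance flags about 1 in 20 groups in this way.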

How the results depend on the processing

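The number of factors called stayed within 1.5 times its reported value under every alternative run, and of 699 refitted log2 fold changes of single factors 664 kept their direction and their side of the threshold. Calls lost or gained on leaving out samples are given beside the results, and the cause of the changes was not tested. The direction turned for Myf5 between WT stages with sample weights (0.15) and with 1 sample left out (range -0.17 to 0.17), for Six4 between WT stages with sample weights (0.14) and with 1 sample left out (-0.28 to 0.12), and for Six4 between Fam134bKO stages with sample weights (0.15), with 1 sample left out (-0.32 to 0.06) and without Fam134bKO myotubes 2 and 4 (0.28). It also turned for Myf5 between the genotypes in myotubes without myotubes 2 and 4 (0.14), and for the Mef2c interaction with an added count of 5 (-0.49) and quantile normalization (-0.10). The Six4 interaction, 0.00 as reported, ranged from -0.23 to 0.20 with 1 sample left out. Sample weights ended the Myf5 call between Fam134bKO stages (adjusted p = 0.0508) and made one between the genotypes in myoblasts (0.66, adjusted p = 0.00703). A threshold of adjusted p under 0.01 ended the Myf5 call between Fam134bKO stages, that of Mef2d between the genotypes in myoblasts and that of the Mef2a interaction. Mef2c was not tested when only the 8 myoblast samples were fitted. The replicate block changed no call on the 8 factors, with 5, 6, 6, 3 and 3 called in the order of the comparisons; the numbers do not pair the samples. Quantile normalization called 1418 genes higher and 1434 lower between WT stages, against 1488 and 986 as reported. With at most 18 reads per myoblast sample, depth limits the Mef2c values there, as it does Myf6 everywhere.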
